A study of Drosophila melanogaster with 12 samples.

Results

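The genes described here are those of chromosome 4 of *Drosophila melanogaster*. The sense-strand count table listed 105 genes on this chromosome among 15998 in all. Of these, 6 were set aside by their symbols (*RpS3A*, *MED26*, *mir-954*, *CR43712*, *CR43437*, and *CR43425*), and of the other 99 genes, 82 had at least 1 CPM (the gene's count relative to the library's total, on a common scale) in at least 2 of the 8 libraries and could be tested among 9612 tested genes. No change between lines was used to choose them. The names and the rule were set with earlier results of these data known.

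Nascent RNA, recovered with chromatin after a urea wash because the transcribing polymerase still holds it, was sequenced from S2 cells and from 3 lines derived from them that carry mutations in *upSET*, the fly homologue of the yeast SET3 gene. S2 (strain S2-DRSC, wild type for *upSET*) is a male, polyploid line from late embryos. Each mutant line grew from a single sorted cell after CRISPR/Cas-9 treatment, so each is 1 clone, while S2 is the parental population. In G3, 67 bp are missing, the start codon and 10 bp of coding sequence among them. The reading frame is broken in the other lines, near the start codon in A7, by losses of 7 bp at 2 places, and much further along in B2, by the loss of 1 bp that leaves 367 amino acids intact. There were 2 libraries per line, and nothing in the labels says whether they came from separate cultures, so the p-values measure the spread between these libraries only. What belongs to a clone and what belongs to the *upSET* mutation it carries cannot be told apart within a line.

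The guide RNA targets define the mutant lines and are shown for that reason. Both lie in *upSET*, listed as *CG9007* on 3L from 13995223 to 14013251 in the dm3 assembly. The capitals mark the PAM, the 3 bases that Cas-9 needs beside its target, and each sequence is read 5′ to 3′.
upset1, used for G3 and A7: aaccgagtcgtgactggacaTGG
upset7, used for B2: acagcagatcagcctaccgcAGG

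Chromosome 4, the dot chromosome, is the smallest chromosome of the fly. It is largely packaged as heterochromatin, with HP1 and methylated H3K9 along it, and yet it carries active genes that are embedded in this environment. In flies the protein POF binds the active genes of this chromosome, and the methyltransferase Eggless supplies much of its H3K9 methylation. The chromosome holds developmental regulators (*ci*, *ey*, *toy*, *pan*), ligands and receptors (*plexA*, *Eph*, *Actbeta*), genes of vesicle release (*unc-13*, *Caps*, *Syt7*), and genes that most cells use (*eIF4G*, *gw*, *ATPsyn-beta*).

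The libraries held between 4738785 and 10902304 sense counts. In these libraries 3 counts amounted to 0.275 to 0.633 CPM, and replicate 2 was the shallower library of every line. Transcription of *upSET* was at 544 and 566 CPM for S2, 464 and 460 for G3, 761 and 605 for A7, and 664 and 679 for B2. The deletions are too small for a gene-level count to check the labels. The 8 markers listed for the hemocyte-like S2 cells summed to 2370 to 3360 CPM per library, with *srp* at 926 to 1142 CPM and *nimC1* at 0 in 3 libraries. Within this sum the collagen genes *Cg25C* (log2FC 4.99 in G3 and 4.46 in A7) and *vkg* (3.88 in G3) were called higher and *Pxn* (-1.78 in A7) lower without the block, and their part in the chromosome 4 values was not tested. The 3 muscle markers summed to 1.5 to 5.79 CPM. The 3 ovarian somatic markers summed to 99.7 to 154 CPM, and *Sxl*, listed as the female marker, was at 336 to 543 CPM. Of the 3 male dosage compensation markers, *roX1* was at 15.2 and 13.6 CPM in S2 and 3861 and 4168 CPM in G3. It was called higher there without the block (log2FC 8.12), and in A7 with the block alone. *msl-2* and *roX2* were not called in any line.

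The first question was whether chromosome 4 as a whole was transcribed at a different level in the mutants. Its 99 genes took a larger share of the sense counts in every mutant library than in the S2 library of the same number. The share was 1.07% and 1.17% in replicates 1 and 2 of S2. For G3 it was 1.21% and 1.27%, for A7 1.43% and 1.60%, and for B2 1.17% and 1.29%. Both A7 libraries thus lay above all other libraries, while replicate 1 of B2 was level with replicate 2 of S2. Relative to the same-numbered S2 library, the share was 1.33 and 1.37 times as large in A7, against 1.13 and 1.08 times in G3 and 1.09 and 1.1 times in B2. Within a line, replicate 2 over replicate 1 gave 1.05 to 1.12 times, a range that holds the ratios of B2 and 1 of those of G3 and ends below those of A7. These are counts per line, so more copies of the chromosome in a clone and more transcription per copy cannot be told apart. In replicate 1, *unc-13* alone gave 3697 of the 89384 chromosome 4 counts in S2 and 8138 of 125854 in G3. It gave 15548 of 156098 in A7 and 7877 of 103009 in B2. Replicate 2 had 2036 of 62977 in S2, 2495 of 68670 in G3, 4287 of 76682 in A7, and 1967 of 61135 in B2. The shares without this gene were not computed.

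**Figure D1:**
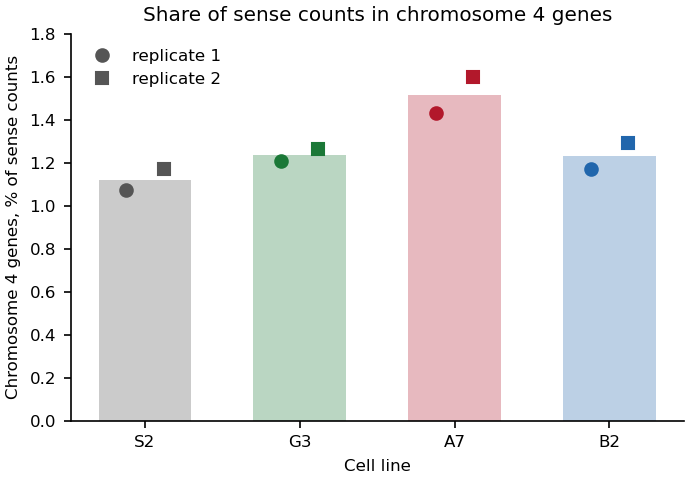
Share of all sense counts that fell in the 99 chromosome 4 genes (y axis, %) in each of the 8 libraries, by cell line (x axis), where points are libraries and bars are the mean of the 2 libraries of a line. The A7 libraries, at 1.43% and 1.60%, lie above the others, and replicate 2 lies above replicate 1 in every line.

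Gene by gene, most members lay above 0 on the log2 scale in each line when compared with S2 by edgeR. In A7, 66 of the 82 had a log2 fold change (log2FC) above 0, or 80.5%, with a median of 0.39, a factor of 1.31. For G3, 53 did, or 64.6%, with a median of 0.17 (a factor of 1.13), and for B2 also 53, with a median of 0.13 (a factor of 1.10). Over all 9612 genes, 43.8% lay above 0 in A7 with a median of -0.05, 42.7% in G3 with -0.06, and 45.3% in B2 with -0.03. Comparing same-numbered libraries one pair at a time gave medians of 0.35 and 0.43 in A7, 0.15 and 0.25 in G3, while B2 gave 0.14 and 0.14. Inside each line, replicate 2 over replicate 1 gave medians of 0.05 to 0.10 for the same 82 genes, smaller than in any of the 6 pairs. The position of the 0 line depends on the scaling: library size alone lowered the median of all genes by 0.118 in G3 and by 0.0988 in B2, and then 46 and 45 members lay above 0, with 65 in A7. The gap between the members' median and that of all genes was 0.23 in G3, 0.44 or 0.45 in A7, and 0.16 in B2 under TMM, DESeq2 size factors, and library size alike. Single libraries moved the smaller medians: that of B2 was 0.22 without S2 replicate 2 and 0.065 without B2 replicate 2, and that of G3 was 0.27 without G3 replicate 1.

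Few members passed a test one at a time. At an adjusted p under 0.05 in edgeR's quasi-likelihood test, 1 member differed from S2 in G3 (*Caps*, lower), where 0.603% of all genes did, with 0.26% lower. None did in A7 (0.375% of all genes), and none in B2 (0.0104%). At an unadjusted p under 0.05, 28 members differed in A7, 27 of them higher, against 8.75% of all genes, with 4.9% higher. In B2, 14 did, 8 of them higher, against 3.25% of all genes, with 1.94% higher. In G3, 12 did, 9 of them higher, against 11.1% of all genes, with 5.63% higher. Same-numbered libraries deviated together from the mean of their line (Pearson's r between 0.487 and 0.709 across the 82 genes, with 2 numbers per line), and treating the number as a block in the model gave more calls. Each log2FC ± SE against S2 below is from the fit without the block, also where an adjusted p with the block stands beside it. With the block, 18 members differed in A7, 17 of them higher, where 3.67% of all genes did, with 2.67% higher. In G3, 4 differed, 2 of them higher, where 5.85% of all genes did, with 3.14% higher. In B2, 1 differed (*Caps*, lower), where 0.427% did, with 0.114% lower. Other tools and filters also made calls without the block. DESeq2 called 5 members in A7 (*CG17471*, *Kif3C*, *PMCA*, *Syt7*, and *unc-13*; 1.69% of all genes), 2 in B2 (*CG32017* and *Caps*; 0.395%), *Caps* in G3 (2.26%), and *CG17471* and *Caps* in the mean of the lines (1.12%). The exact test of edgeR called *CG17471*, *Syt7*, and *unc-13* in A7 (1.83%), *CG32017* and *Caps* in B2 (0.437%), and *Caps* in G3 (2.18%). Its quasi-likelihood test without a filter beyond 1 count called those same genes in A7 (1.05%), B2 (0.215%), and G3 (1.15%). In the mean of the 3 mutant lines, which shares its S2 libraries with the other comparisons, *Caps* was called lower without the block (0.156% of all genes, with 0.0416% lower), and 9 members were called with it (1.99%), 8 of them higher (1.21% of all genes): *CG17471*, *CG31998*, *CaMKII*, *Crk*, *PMCA*, *Syt7*, *pho*, and *unc-13*.

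The level of transcription went with the direction. After the values had been seen, the 82 genes were split by their mean CPM into the 28 most transcribed (146 to 1310 CPM), 27 in between (16.6 to 134 CPM), and the 27 least transcribed (1.15 to 15.8 CPM). Of the 28 most transcribed, 28 lay above 0 in A7 (median 0.40), 27 in G3 (0.28), and 26 in B2 (0.22). Among all genes at that level, 51.1%, 61.7%, and 72.0% did. Of the 27 in between, 21 lay above 0 in A7, 17 in G3, and 17 in B2, or 77.8%, 63.0%, and 63.0%, against 38.1%, 38.6%, and 45.8% of all genes at that level. Of the 27 least transcribed, 17 lay above 0 in A7, 9 in G3, and 10 in B2, or 63.0%, 33.3%, and 37.0%, where 46.2%, 41.3%, and 38.8% of all genes did. In G3 and B2 the least transcribed members were thus near or below the share of all genes, and the most transcribed of all genes also lay above 0 more often than the least transcribed in each line. Across the 82 genes, Spearman's rho between mean CPM and log2FC was 0.55 in G3, 0.37 in B2, and 0.14 in A7, a description over genes that share their libraries and depth. The spread also widened at low level: the middle 50% of the least transcribed genes in G3 spanned 0.90 log2 units, against 0.15 for the most transcribed.

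**Figure D2:**
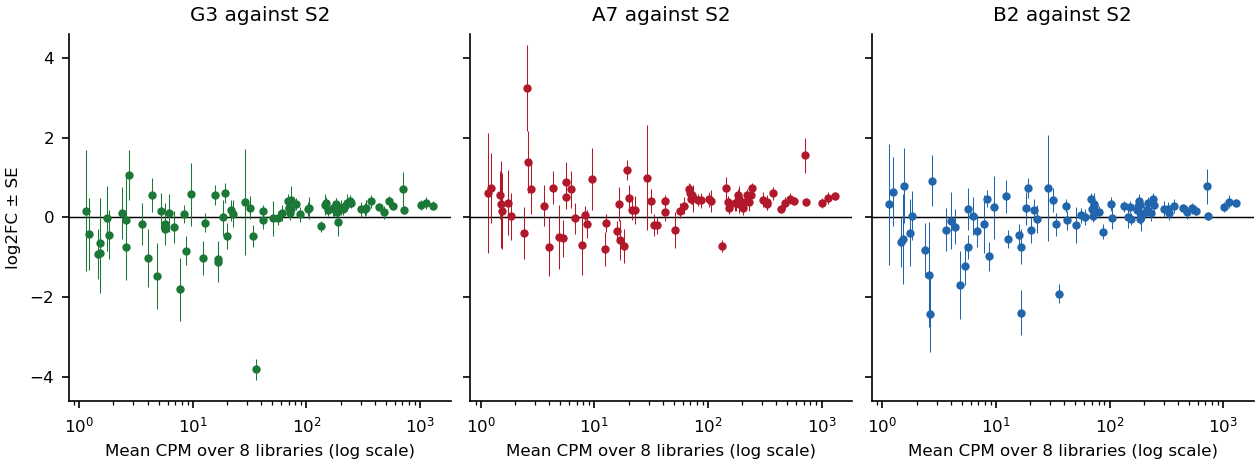
Log2FC against S2 with its standard error (y axis) and mean CPM over the 8 libraries (x axis, log scale) for the 82 chromosome 4 genes, 1 point per gene and 1 panel per mutant line. At 146 CPM and above, 28 genes lie above 0 in A7, 27 in G3, and 26 in B2, while at low level the points scatter to both sides.

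Counted by library, both A7 libraries lay above both S2 libraries for 46 of the 82 genes (56.1%), where 16.7% of all genes did so. For G3 these were 27 members (32.9%, all genes 17.1%), and for B2 23 members (all genes 13.1%). Both libraries lay below both S2 libraries for 8 members in A7 (all genes 19.5%), 11 in G3 (21.1%), and 10 in B2 (13.3%). In 18 of the 82 members each of the 6 mutant libraries lay above both S2 libraries, where 3.8% of all genes did. They were *pan*, *Ank*, *CG31998*, *Crk*, *Syt7*, *PMCA*, *Thd1*, *Eph*, *gw*, *CG11360*, *CG11148*, *CG32016*, *plexA*, *CaMKII*, *cals*, *Arf102F*, *pho*, and *CG17471*. In 2 members, *CG32017* and *Caps*, each of the 6 lay below both S2 libraries, a share of 2.44% against 4.26% of all genes. The shares of all genes in these counts are over genes of every level. Genes at the members' own levels were not counted this way, although direction went with level.

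**Figure D3:**
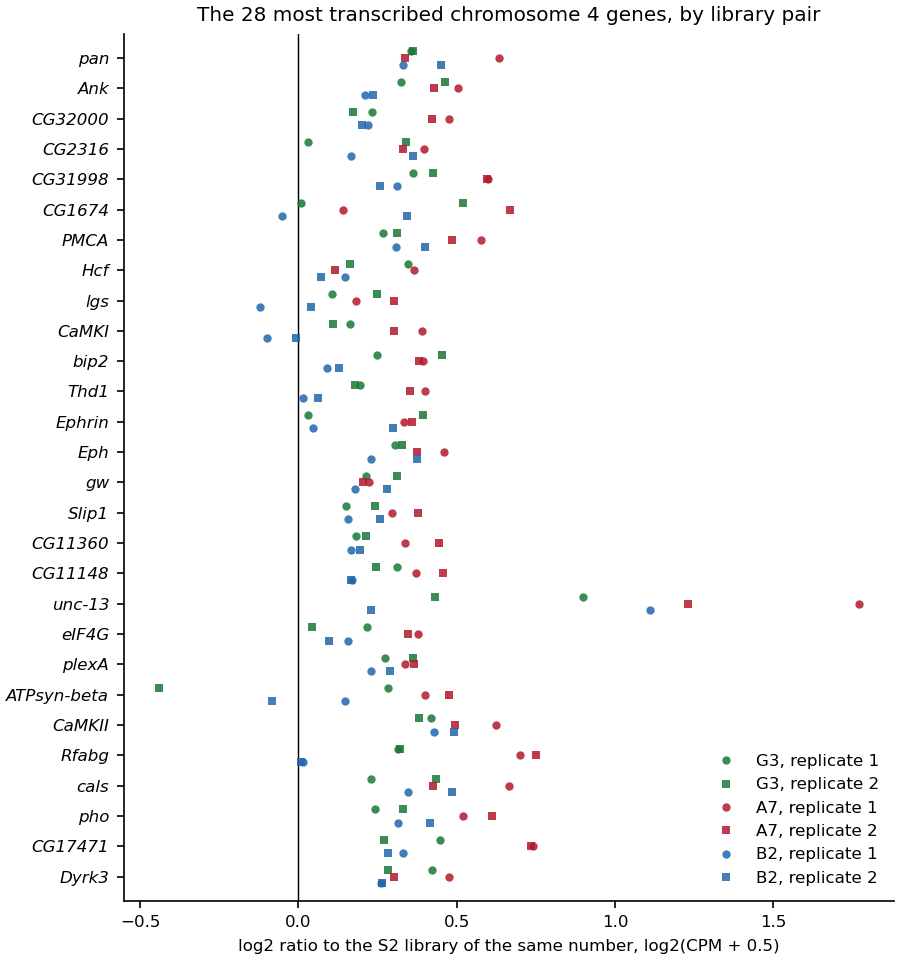
Log2 ratio of each mutant library to the S2 library of the same number (x axis, on log2(CPM + 0.5)) for the 28 most transcribed chromosome 4 genes in chromosome order (y axis), with lines by colour and replicates by shape. In A7 the 28 genes lie above 0 in both replicates, and in G3 *ATPsyn-beta* falls on different sides in the 2 replicates.

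The mutant lines were also set against each other, which leaves S2 out. Most members lay higher in A7 than in the other mutants: 71 of the 82 lay above 0 in A7 against G3, or 86.6% (median 0.23), and 69 in A7 against B2, or 84.1% (median 0.25). Over all genes these shares were 51.3% and 49.5%. Both A7 libraries lay above both G3 libraries for 34 members (41.5%, all genes 18.5%) and above both B2 libraries for 30 (36.6%, all genes 18.4%). Between G3 and B2, 45 members (54.9%) lay above 0, with a median of 0.01, and 12 had both G3 libraries above both B2 libraries (all genes 17.7%). By single genes, *Caps* was the 1 member called between A7 and G3 without the block (0.208% of all genes), and none was called between A7 and B2 (0.291%) or G3 and B2 (0.239%). At an unadjusted p under 0.05 these counts were 11, 16, and 5, against 6.97%, 8.36%, and 8.39% of all genes. With the block, 5, 9, and 3 members were called, where 2.99%, 3.9%, and 3.85% of all genes were. Those between A7 and G3 were *Caps*, *Actbeta*, *toy*, *zfh2*, and *unc-13*, all higher in A7. *Caps*, *Actbeta*, *toy*, and *unc-13* were also higher in A7 than in B2, as were *CG31999*, *Rfabg*, and *mgn00541*, while *CG33521* and *Kif3C* were lower. Between G3 and B2 they were *Caps*, *NfI*, and *dpr7*, all lower in G3.

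Genes of vesicle release and other neuronal genes included the lowest log2FC of the chromosome, that of *Caps* in G3. The list has 9 members, all tested: 4 lay above 0 in G3 (median -0.17), 7 in A7 (0.41), and 8 in B2 (0.43). *Caps* (RefSeq symbol *Cadps*), from 1235561 to 1275487 the last tested gene of the chromosome, encodes an activator of dense-core vesicle release. It was at 58.2 and 72.1 CPM for S2, 4.32 and 5.05 for G3, 56.1 and 56.8 for A7, and 13.3 and 21.6 for B2. The G3 libraries were the lowest, those of B2 lay between, and those of A7 were just under S2 with no overlap in any line. It fell in G3, with a log2FC of -3.81 ± 0.27 (SE) and an adjusted p of 0.00242 in edgeR without the block, and this call held with each library left out in turn (adjusted p 0.00268 to 0.0462). In B2 the log2FC was -1.92 ± 0.24, with an adjusted p of 0.13 without the block and 0.0029 with it. In A7 it was -0.20 ± 0.22 (adjusted p 0.86 without and 0.554 with the block). In the mean of the 3 lines it was -1.98 ± 0.18 (adjusted p 0.0107), a call that was lost without S2 replicate 2 and without either library of G3 or of A7.

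*unc-13*, which primes synaptic vesicles for fusion, lay on the other side of S2. Its level was 428 and 359 CPM for S2, 800 and 484 for G3, 1467 and 840 for A7, and 928 and 421 for B2. Replicate 1 was higher than replicate 2 in each line, and replicate 2 of B2 fell between the S2 libraries. The log2FC was 1.55 ± 0.44 in A7, a factor of 2.93, with an adjusted p of 0.321 without the block and 0.00359 with it, so that the gene rose in A7 in the fit with the block. In G3 (0.71 ± 0.43) and B2 (0.78 ± 0.43) it was not called by either fit. *Syt7*, a calcium sensor of exocytosis, was low throughout, at 11.8 and 12.2 CPM for S2, 20.7 and 15.7 for G3, 32.9 and 21.2 for A7, and 21.2 and 18.8 for B2. All 6 mutant libraries exceeded S2, and with the block the gene rose in A7 (log2FC 1.19 ± 0.25, adjusted p 0.00965 with and 0.157 without it). None of *elav*, *n-syb*, and *brp*, markers of neurons outside chromosome 4, was called in any line. These 3 neuronal markers summed to 53.0 to 76.0 CPM over the 8 libraries, of which *elav* alone gave 49.2 to 65.9 CPM.

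The other neuronal genes were mostly weakly transcribed. *cals*, which encodes the cadherin-like Calsyntenin, was the exception, at 140 and 148 CPM in S2 and 164 to 222 CPM in the 6 mutant libraries, with log2FC of 0.34 (G3), 0.55 (A7), and 0.42 (B2) and no call. *dpr7*, of the Dpr family of immunoglobulin proteins, was at 14.1 and 14.1 CPM for S2, 10.1 and 3.11 for G3, 8.11 and 8.23 for A7, and 20.1 and 20.5 for B2. B2 lay above S2 and G3 and A7 below it, none of them called against S2, and G3 was lower than B2 with the block (log2FC difference -1.53). The glutamate receptor gene *mGluRA* stayed at or below 2.59 CPM in all libraries.

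**Figure D4:**
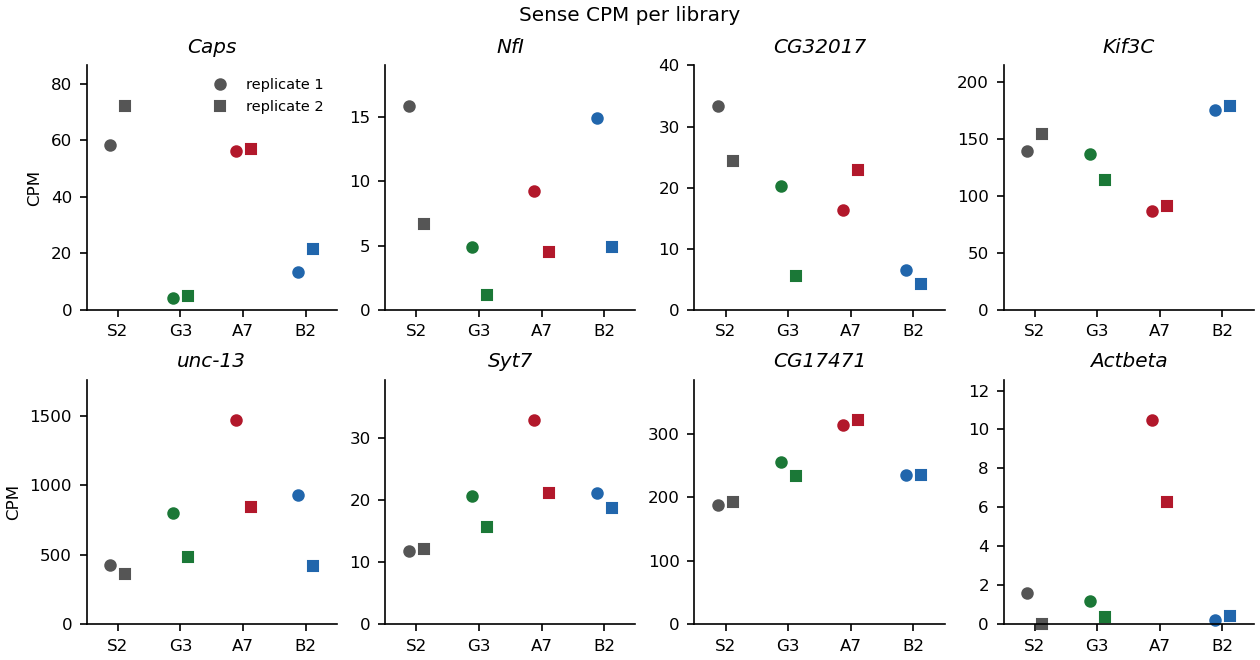
Sense CPM (y axis, from 0, scaled per panel) of 8 chromosome 4 genes in the 8 libraries, by cell line (x axis), circles for replicate 1 and squares for replicate 2. *Caps* is at 4.32 and 5.05 CPM in G3 against 58.2 and 72.1 CPM in S2, and *Actbeta* is above 2 CPM only in the A7 libraries, at 10.5 and 6.27 CPM.

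Signalling genes lay mostly above 0. Of 15 in the list, 11 lay above 0 in G3 (median 0.23), 13 in A7 (0.41), and 9 in B2 (0.18). None was called without the block, and with it 4 rose in A7 (*Crk*, *CaMKII*, *CG17471*, and *Actbeta*), where 2.67% of all genes did, and none was called in G3 or B2 (5.85% and 0.427% of all genes). *CG17471* (RefSeq symbol *PIP4K*), a phosphoinositide kinase, was closest to a call without the block. It was at 187 and 193 CPM for S2, 255 and 233 for G3, 313 and 321 for A7, and 235 and 235 for B2, each pair of mutant libraries clear of S2. In A7 its log2FC was 0.74 ± 0.12, a factor of 1.67, with an adjusted p of 0.0658, and 0.00585 with the block. *Crk*, an adaptor between receptors and small GTPases, was at 46.5 and 56.4 CPM in S2 and 76.7 and 91.5 CPM in A7, with 65.9 to 72.7 CPM in the G3 and B2 libraries. With the block it rose in A7 (log2FC 0.71 ± 0.16, adjusted p 0.0113 with and 0.185 without it). *CaMKII*, the calcium and calmodulin-dependent kinase, was at 173 and 201 CPM for S2, 231 and 262 for G3, 267 and 283 for A7, and 233 and 282 for B2. It was likewise called in A7 with the block alone (0.56 ± 0.15, adjusted p 0.0203 with and 0.309 without it), while its relative *CaMKI* was not called in any line (log2FC 0.14, 0.35, and -0.05 in G3, A7, and B2).

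The chromosome carries 3 ligands of the TGF-beta family. *Actbeta*, the fly Activin-beta, was at 1.62 and 0 CPM for S2, 1.18 and 0.388 CPM for G3, and 0.236 and 0.428 CPM in B2, all at or below 1.62 CPM. In A7 it was at 10.5 and 6.27 CPM, so that both libraries stood above the other 6. The log2FC in A7 was 3.23 ± 1.07, with an adjusted p of 0.427 without the block and 0.0271 with it, a fitted value that depends on the handling of the library at 0. *myo* was at 65.1 and 72.3 CPM in S2 and 91.4 and 94 CPM in A7 (log2FC 0.43), and *mav* had a log2FC of 0.48 in A7 and -0.47 in G3. Neither was called. *plexA*, a semaphorin receptor and the member with the second highest CPM per kilobase of gene in S2, was at 830 and 896 CPM there and at 974 to 1154 CPM in the 6 mutant libraries, with log2FC of 0.26 to 0.35 and no call. The receptor *Eph* was at 142 and 163 CPM in S2 and 167 to 211 CPM in the mutants, and its ligand *Ephrin* overlapped between S2 and both G3 and B2.

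Transcription factors and cofactors lay on both sides of S2. The list has 15 genes, of which *Sox102F* was under the filter. Of the 14 tested, 7 lay above 0 in G3 (median 0.07), 12 in A7 (0.35), and 7 in B2 (-0.01). None was called without the block, while with it *pho* rose in A7 and *NfI* fell in G3, 1 of 14 each, where 3.67% and 5.85% of all genes were called. *pho*, which encodes the DNA-binding Polycomb group protein Pleiohomeotic, was at 169 and 182 CPM for S2, 200 and 229 for G3, 243 and 278 for A7, and 210 and 243 for B2. All mutant libraries were above S2, and the log2FC in A7 was 0.57 ± 0.15 (adjusted p 0.0172 with and 0.27 without the block). *pan*, the TCF factor of Wnt signalling, was among the 5 members with the highest CPM in S2, at 840 and 973 CPM, and lay at 1057 to 1330 CPM in the mutants, with no call (log2FC 0.36 to 0.48). Its partner *lgs* was at 140 and 148 CPM in S2 and 128 to 183 CPM in the mutants, overlapping S2 in B2.

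*NfI*, a CCAAT-binding factor of the nuclear factor I family, was at 15.9 and 6.7 CPM for S2, 4.91 and 1.16 for G3, 9.25 and 4.51 for A7, and 15 and 4.92 for B2. Both G3 libraries were below both S2 libraries, and the log2FC in G3 was -1.80 ± 0.79 (adjusted p 0.00747 with and 0.467 without the block). The Pax6 genes *ey* and *toy* had few reads. *toy* was at 3.82 and 0.881 CPM (S2), 1.97 and 0.776 (G3), 8.3 and 4.31 (A7), and 0.589 and 0.214 (B2). It was called against S2 by neither fit, while A7 exceeded both G3 and B2 with the block (adjusted p 0.0315 and 0.00529). *ey* was at 17.1 and 14.5 CPM for S2, 19.4 and 27.6 CPM for G3, and 10.3 to 14.2 CPM in A7 and B2, again with no call. *zfh2*, a zinc finger homeodomain factor, was at 26.8 and 12.9 CPM (S2), 13 and 5.82 (G3), 24 and 26.8 (A7), and 13.6 and 10.3 (B2). It was not called against S2, and it was higher in A7 than in G3 with the block (log2FC difference 1.42). *ci*, the transcription factor of Hedgehog signalling, stayed at 1.71 to 5.09 CPM in all libraries.

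Genes for RNA, translation, energy, and other general functions lay mostly above 0 in each line. Of 15 tested in a list of 16, 12 lay above 0 in G3 (median 0.19), 14 in A7 (0.42), and 14 in B2 (0.19). None was called without the block. With it, 6 rose in A7 (*CG11148*, *Rad23*, *Ank*, *Rfabg*, *CG2177*, and *PMCA*), 1 fell there (*Kif3C*), and 1 rose in G3 (*Ank*), against 3.67% of all genes called in A7 and 5.85% in G3, so that the 1 of 15 in G3 is near the share of all genes. *PMCA*, the plasma membrane calcium pump, had the highest CPM of the chromosome, with 1035 and 1082 CPM for S2, 1247 and 1344 for G3, 1545 and 1515 for A7, and 1283 and 1427 for B2. The lines did not overlap with S2, and the log2FC in A7 was 0.53 ± 0.11 (adjusted p 0.0142 with and 0.147 without the block). *Ank*, encoding Ankyrin, was at 412 and 458 CPM for S2, 516 and 632 CPM for G3, and 584 and 616 CPM in A7, and was called with the block in both lines (adjusted p 0.0493 and 0.0341). *Rfabg* (RefSeq symbol *apolpp*), the precursor of lipophorin, was at 100.3 and 137 CPM in S2 and again at 101 and 138 CPM in B2, with 163 and 230.4 CPM in A7. It was called in A7 with the block (adjusted p 0.0063 with and 0.494 without it). Without the block its log2FC was 0.73 ± 0.27 in A7 and 0.01 in B2.

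*gw*, the GW182 protein of microRNA silencing, and *eIF4G*, the scaffold of translation initiation, had small differences. *gw* was at 395 and 382 CPM in S2 and 439 to 474 CPM in the mutants (log2FC 0.21 to 0.26), and *eIF4G* at 389 and 472 CPM in S2 and 433 to 600 CPM in the mutants (0.12 to 0.36). Neither was called. *ATPsyn-beta*, the beta subunit of mitochondrial ATP synthase, had the highest CPM per kilobase of gene in S2, at 63.0. Its libraries spread widely within lines, with 131 and 221 CPM in S2 and 173 and 307 CPM in A7, and no line was separate from S2.

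*Kif3C*, a kinesin motor gene, was the 1 member that fell in A7 in the fit with the block. It was at 139 and 154 CPM for S2, 137 and 114 for G3, 86.8 and 91.1 for A7, and 175 and 179 for B2. A7 lay below and B2 above all S2 libraries, with a log2FC of -0.72 ± 0.14 in A7 (adjusted p 0.0187 with and 0.147 without the block) and 0.27 ± 0.14 in B2. Its extent, 1168056 to 1189865, overlaps that of *pho*, 1187517 to 1202292. The other members called in A7 with the block were *CG31998*, *CG32000* (*anne*), *Lin29* (*dati*), and *pncr013:4*, all higher. For *Lin29* the replicates differed more than the lines, with 33.8 and 5.11 CPM in S2 and 64.8 and 13.1 CPM in A7, and its log2FC of 0.99 turned to -0.60 without A7 replicate 1 and reached 2.96 without S2 replicate 1 in the fit without the block. *CG31998* was at 269 and 320 CPM for S2, 346 and 430 for G3, 408 and 483 for A7, and 334 and 383 for B2, and was called with the block in G3 (adjusted p 0.0459) and A7 (0.0109).

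Among members with a mean of at least 5 CPM, the highest log2FC in the mean of the 3 lines belonged to *unc-13*, *Syt7*, *Lin29*, *mgn00544*, and *Crk*, and the lowest to *Caps*, *CG32017*, *NfI*, *CG11077*, and *CG11093*. *CG32017* was at 33.4 and 24.3 CPM for S2, 20.2 and 5.63 for G3, 16.4 and 22.9 for A7, and 6.48 and 4.28 for B2. Its log2FC was -2.39 ± 0.56 in B2, with an adjusted p of 0.744 in edgeR without the block and 0.0794 with it, and 0.00749 in DESeq2. *CG11155*, a glutamate receptor gene whose extent overlaps it, was at 31.4 and 21 CPM in S2 and 43.4 and 27.2 CPM in B2, with a log2FC of 0.43 and no call. *bt*, the longest member at 51704 bp and the gene of the muscle protein projectin, was at 13.1 and 3 CPM in S2 and 1.71 to 9.4 CPM in the mutants, with no call.

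Along the chromosome the members' values had no clear domain. In the 73 windows of 10 adjacent tested genes, the median log2FC was above 0 in 73 windows for A7, 63 for G3, and 63 for B2. In A7 the window medians ran from 0.23, between *mgn00549* and *CG11076*, to 0.53, between *Ank* and *yellow-h*. They ran from -0.24 to 0.30 in G3 and from -0.09 to 0.28 in B2, with the lowest G3 window between *Asator* and *mav*. The G3 windows below 0 were consecutive and covered the genes from *mgn00545* to *CG11360*. Adjacent windows share most of their genes, and this stretch was not tested. In 4 successive segments of 20 or 21 genes, the medians were 0.36 to 0.45 in A7, 0.13 to 0.20 in G3, and 0.11 to 0.17 in B2. Adjacent genes shared little, with Pearson's r between adjacent log2FC values of 0.02 (G3), 0.08 (A7), and 0.10 (B2), and Spearman's rho between position and log2FC of -0.09, -0.15, and -0.04. These are descriptions across 82 genes of the same libraries. *Caps*, last in the row, lay beside *Dyrk3*, which was at 114 and 137 CPM in S2 and 153 and 167 CPM in G3, and *Mitf*, at 58.8 and 65.4 CPM in S2 and 71.8 and 75.1 CPM in G3.

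**Figure D5:**
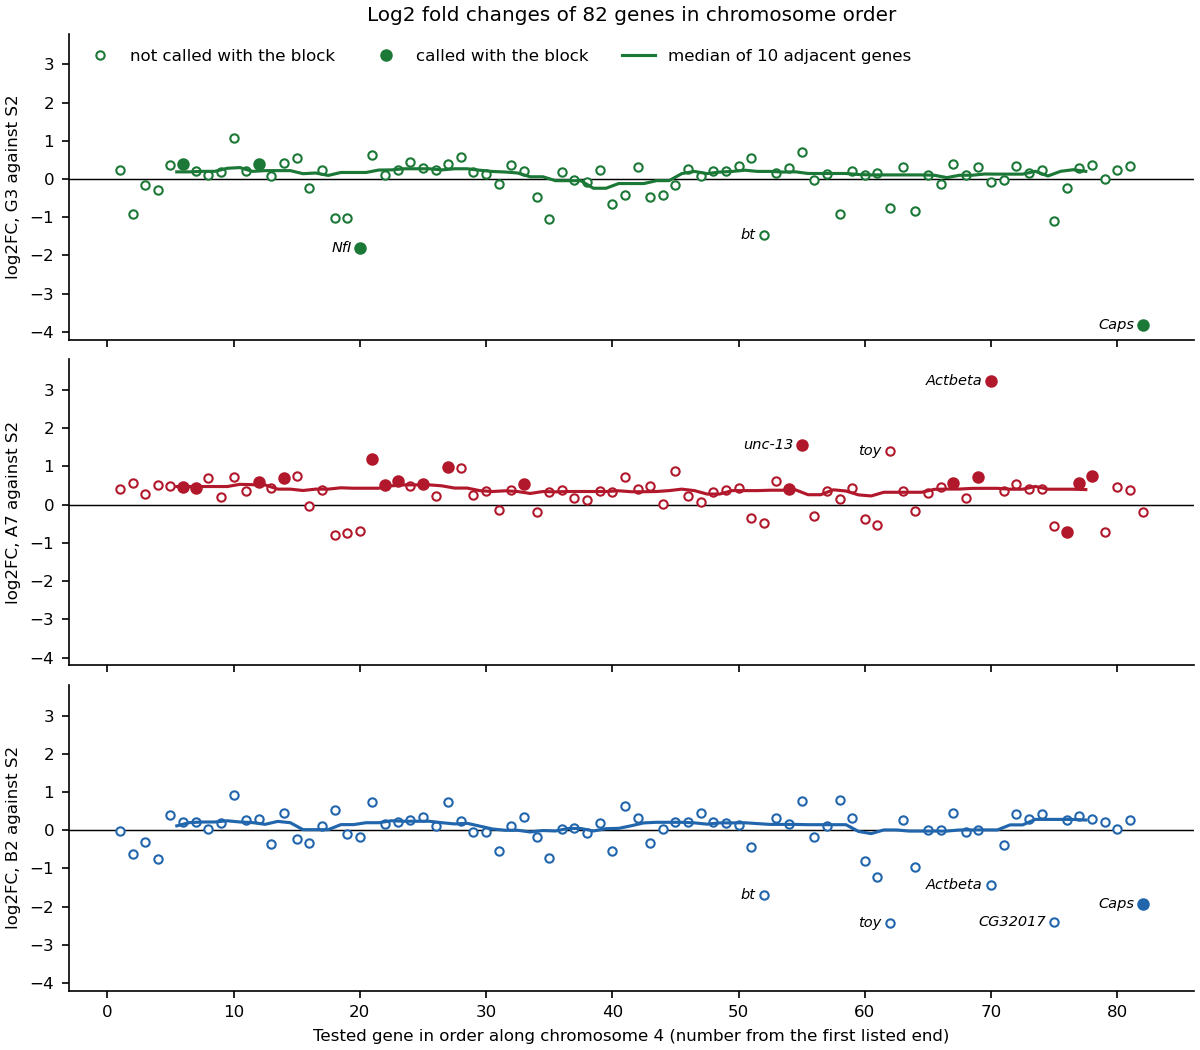
Log2FC against S2 (y axis) of the 82 tested genes in their order along chromosome 4 (x axis, gene number), 1 panel per mutant line, with filled points for genes called with the replicate block and a line for the median of 10 adjacent genes. The A7 line stays between 0.23 and 0.53 along the whole chromosome, and the largest departures are *Caps* in G3 (-3.81) and *Actbeta* in A7 (3.23).

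Genes whose extent overlaps another listed gene can share reads. There were 35 such members, and in A7 their median was 0.38 against 0.41 in the 47 with no overlap. In G3 these medians were 0.17 and 0.18, and in B2 0.12 and 0.14. Gene length had no clear relation to log2FC either (Spearman's rho 0.07 to 0.09 in the 3 lines).

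On other chromosome arms the genes lay lower. The median log2FC of 2L, 2R, 3L, 3R, and X lay between -0.12 and 0.02 (G3), -0.10 and 0.03 (A7), and -0.07 and 0.01 (B2). The 70 tested genes of the assembled heterochromatic arms had medians of 0.52 (G3), 0.21 (A7), and 0.06 (B2). They were therefore above the chromosome 4 median in G3 and below it in A7 and B2. The middle 50% of those genes spanned 1.22 log2 units in G3 against 0.46 for chromosome 4. No test of these differences between sets of genes was run.

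Antisense counts gave a readout that the choice of members did not use. Of the 99 genes, 94 passed the same filter on antisense counts. Their median antisense log2FC was 0.27 in A7, -0.03 in G3, and -0.08 in B2, against -0.16, -0.15, and -0.18 over 12610 genes, and 58.5%, 45.7%, and 44.7% of members lay above 0, against 39.9% to 41.2% of all genes in the 3 lines. In G3, 2 members were called without the block (*Caps* and *Kif3C*, both lower, against 0.444% of all genes, with 0.246% lower), in A7 1 (*sv*, higher, against 0.293%, with 0.198% higher), and in B2 none (0.0634%), where 5 had an unadjusted p under 0.05 against 3.47% of all genes. With the block, 4 were called in G3 (1.96% of all genes), 7 in A7 (2.1%), and 3 in B2 (1.51%). Those in A7 include *mgn00549*, *CG33521*, and *pho*, so they are not all separate from the sense results.

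Antisense CPM are relative to the antisense totals, 445550 to 1235268 counts per library, so their levels cannot be set against sense CPM. As raw counts in S2, *Kif3C* had 615 and 760 antisense against 1200 and 872 sense. *Caps* had 262 and 165 against 502 and 409, and *pho* 1414 and 873 against 1458 and 1031. Antisense to *Caps*, the level was 230 and 331 CPM of antisense counts in S2 and 45.1 and 40.0 CPM in G3, with a log2FC of -2.71 ± 0.44 (adjusted p 0.00145), so that both strands were lower in G3. In A7 it was 176 and 120 CPM and in B2 89.5 and 105 CPM, neither of them called without the block (with it, adjusted p 0.081 in A7 and 0.000154 in B2). Antisense to *Kif3C* it was 541 and 1526 CPM in S2 and 126 and 103 CPM in G3 (log2FC -3.17 ± 0.52, adjusted p 0.00145), while the sense log2FC there was -0.22. In A7 this strand was at 303 and 696 CPM and in B2 at 236 and 402 CPM, both called lower with the block alone (adjusted p 0.00497 and 4.06e-07). The sense counts of *pho*, which *Kif3C* overlaps, were at 169 and 182 CPM in S2 and 200 and 229 CPM in G3, not lower. Antisense counts of *pho*, which can hold reads of *Kif3C*, were at 1244 and 1753 CPM in S2 and 1176 and 1022 CPM in G3, with no call (log2FC -0.45). The antisense strand of *sv*, the fly Pax2 gene *shaven*, was at 50.1 and 30.1 CPM for S2, 97.4 and 19.1 for G3, 876 and 878 for A7, and 50.6 and 25.0 for B2. It rose in A7 with a log2FC of 4.42 ± 0.58 (adjusted p 0.000113 without the block), whereas the sense strand of *sv* was at 0.529 to 2.9 CPM in all libraries and had the lowest CPM per kilobase of the 82 genes in S2. The share of reads from chromosome 4 genes that were antisense was 10.5% to 13.8% per library, against 8.59% to 11.0% over all genes. Counts over overlapping genes are part of both shares.

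The 17 genes under the filter had at most 33 counts summed over the 8 libraries (*mgn00551*), and *JYalpha* and *CG33797* had none. Among the others, *Sox102F* reached 1.39 CPM in 1 library. Of the 17, 11 had no RefSeq match (10 gene predictions and *CG11231*), as did 9 gene predictions among the 82 tested.

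Proteins known to act on chromosome 4 chromatin or on pericentric heterochromatin are encoded elsewhere, and 10 of their genes were listed. *Pof*, the gene of the POF protein, was at 16.9 and 19.6 CPM for S2, 13.5 and 13.2 for G3, 14.6 and 9.01 for A7, and 16.1 and 17.5 for B2, and was not called (adjusted p 0.527 to 0.999 over the 3 lines). Eggless (*egg*) was at 51.8 and 58.9 CPM in S2 and 40.9 to 52.0 CPM in the mutants, with no call either. Of the 10 genes in the list, 2 were called higher in G3 and 1 each in A7 and B2 without the block, where 0.603%, 0.375%, and 0.0104% of all genes were called in either direction. These were *del* in all 3 lines and *rhi* in G3, which encode germline factors of piRNA cluster transcription. With the block *rhi* was also called higher in B2 (log2FC 1.84, adjusted p 0.035 with and 0.292 without it), where 0.427% of all genes were called. Apart from *del* and *rhi*, no gene of the list was called by either fit. The list was set with earlier results of these data known, so these counts are no measure of the list as a whole. The 4 germline markers listed for comparison summed to 19.5 to 30.9 CPM, at 22.4 and 30.9 CPM in S2 and 19.5 to 28 CPM in the mutants.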

How the data were processed

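Per the labels and the study's methods, the authors trimmed the reads, aligned them to dm3 with Bowtie (0.12.7 in the submitters' processing notes) keeping unique alignments, and separated sense from antisense reads of each gene; the counting program is not given in the sources used here. The deposited values are raw counts per gene and library. The second library of each line, numbered 3 in the count tables, was taken as labelled replicate 2 by elimination. The 4 ChIP samples were not analysed here.

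From these counts, edgeR 4.0.16 was run on all 8 libraries with TMM scaling, a filter of at least 1 CPM in at least 2 libraries, and its quasi-likelihood test, with Benjamini-Hochberg adjustment over 9612 genes (12610 for antisense) and a threshold of 0.05. The main model held the cell line alone. Labels do not say what the replicate number marks, but deviations of same-numbered libraries correlated in all pairs of lines (r 0.500 to 0.633 over 9612 genes), so values with the number as a block stand beside results where a call differs. Common dispersion was 0.0657 without and 0.0143 with the block. CPM values use TMM-scaled library sizes, from sense totals for sense counts and from antisense totals for antisense counts. SE is the log2FC divided by the root of its F statistic, and ratios between same-numbered libraries add 0.5 CPM. Values of log2FC ± SE against S2 come from the model without the block, also beside an adjusted p with it. Depth was 4738785 to 10902304 sense counts per library, and counting limits cover counting error only.

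Genes named in the text were those called by either model, the 5 with the highest CPM in S2, the 5 highest and 5 lowest log2FC in the mean comparison at a mean of 5 CPM or more, and landmark genes; others were named after their values were seen. Members and lists were chosen with earlier results of these data known. Symbols matched RefSeq (Release 6 assembly) for 79 of 99 genes and are used for names only. The scripts were tested on simulated counts. Alternatives were DESeq2 1.42.0, library size alone, other filters, the replicate block, edgeR's exact test, fits of a pair of lines alone, leaving out each library, sense plus antisense counts, and members without overlap. R 4.3.3 and Python 3.11.15 were used.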

Additional observations from a re-analysis of the deposited data

Results flagged for a closer look

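The response of *Caps* differed between mutant lines made with the same guide RNA. Its log2FC against S2 was 3.60 ± 0.27 (SE) higher in A7 than in G3 (adjusted p 0.00482 in edgeR without the replicate block and 3.5e-05 with it), and both A7 libraries, at 56.1 and 56.8 CPM, lay above both G3 libraries, at 4.32 and 5.05 CPM. It was the 1 chromosome 4 gene whose difference between mutant lines passed the test without the block.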

How the results depend on the processing

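The replicate block gave 4 called members in G3, 18 in A7, 1 in B2, and 9 in the mean of the lines (1, 0, 0, and 1 without it), and 4, 7, and 3 for antisense counts (2, 1, and 0 without it). For sense counts in G3, A7, and the mean, the block gave the highest counts of the alternatives run, while in B2 the highest, 2, came from DESeq2, the fit with no filter beyond 1 count, and edgeR's exact test (0.395%, 0.215%, and 0.437% of all genes). The same settings called 5, 3, and 3 members in A7 (1.69%, 1.05%, and 1.83% of all genes), and DESeq2 called 2 in the mean (1.12%). Leaving out each library gave 1 call in G3 throughout, 0 in A7 and B2, and 0 or 1 in the mean, where the call of *Caps* was lost without S2 replicate 2, either G3 library, or either A7 library. Medians over the members ranged, with each library left out, from 0.12 to 0.27 in G3 (0.27 without G3 replicate 1), 0.31 to 0.46 in A7, 0.065 to 0.22 in B2 (0.065 without B2 replicate 2 and 0.22 without S2 replicate 2), and 0.20 to 0.24 in the mean. Scaling by library size alone gave medians of 0.056 in G3, 0.034 in B2, and 0.15 in the mean, by lowering all genes. The second pair of same-numbered libraries gave 0.25 in G3. In B2 the medians were 0.14 with DESeq2, 0.13 without a filter, 0.18 with 1 CPM in all 8 libraries, 0.15 with sense plus antisense counts, 0.14 without overlapping members, and 0.14 in both pairs, against 0.13 as reported. The log2FC of *Lin29* in A7 turned to -0.60 (adjusted p 0.971) without A7 replicate 1 and reached 2.96 without S2 replicate 1. Depth limited the genes near 1 CPM, where 3 counts amounted to 0.275 to 0.633 CPM.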
